A study of Mus musculus with 7 samples.

Results

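The H2 complex is the mouse major histocompatibility complex, a gene-dense stretch of chromosome 17. Its peaks of open chromatin were chosen by position alone, as every peak whose midpoint lies between 33.9 and 37.7 Mb in the mm9 build. This gave 417 of the 98723 peaks in the table. The stretch was put forward with results of these libraries known, among them 1 peak in it that passed the test between the vectors, so values of that contrast are given here as a description. Open DNA was cut and tagged by a transposase (Omni-ATAC-seq), and each value is a number of reads in a peak. Both groups started from bone marrow of C57BL/6 mice aged 24 months, enriched for cKit-positive cells and given either a control lentivirus (4 libraries, numbered 1 to 4) or a lentivirus that expresses Runx3 (3 libraries, numbered 1, 3 and 4). The cells were grown in lethally irradiated hosts for 16 weeks, and donor-derived haematopoietic stem cells that carried the vector (LSK, Flt3-negative, CD150-positive, CD48-negative, CD45.2-positive, hCD2-positive) were then sorted. The labels do not give the promoter that drives Runx3, nor whether libraries came from separate hosts or donors. The p-values here therefore rest on the spread among these samples alone, and that spread may be technical. The identity of the sorted cells was not checked against marker genes, since no gene map of the mm9 build was used here.

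Genes of the H2 complex encode the molecules that show peptides to T cells. Class I molecules display peptides made inside the cell, cut by immunoproteasome subunits such as Psmb8 and Psmb9 and carried into the endoplasmic reticulum by Tap1 and Tap2. Class II molecules, such as the pairs of H2-Aa with H2-Ab1, display peptides from engulfed material and are loaded with the help of H2-DM. The class III genes between them include those of complement components, of the cytokines Tnf, Lta and Ltb and of heat shock proteins. Runx3 is a DNA-binding factor of the RUNX family, best known for its part in the CD8 T-cell and natural killer lineages. Promoters of class II genes carry a conserved module of short elements. Its Y box is bound by NF-Y, and the whole module recruits the co-activator Ciita.

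No genome of the mm9 build was used, so the sequences of the peaks are not printed. The module can be seen in RefSeq promoters of genes of the class II stretch, taken from another build, GRCm38.p6, whose positions cannot be set against those of the peaks. They are shown for what the stretch is known for, and none was tied to a peak. In the RefSeq gene order the stretch from H2-Ke6 to Btnl6 holds 23 protein-coding genes. Each promoter below runs from 250 bases before the gene's start to 50 after it, 5′ to 3′ on the gene's strand. Capitals mark the Y box core TGATTGG, and in H2-DMb1 also the RUNX core TGTGGT, which is read there on the other strand as ACCACA. H2-DMb1 encodes a chain of the H2-DM peptide loader and lies at chr17:34152941-34153240 on the plus strand. H2-Aa and H2-Eb1 encode the alpha chain of H2-A and the beta chain of H2-E, at chr17:34287774-34288073 on the minus strand and chr17:34305617-34305916 on the plus strand.
H2-DMb1: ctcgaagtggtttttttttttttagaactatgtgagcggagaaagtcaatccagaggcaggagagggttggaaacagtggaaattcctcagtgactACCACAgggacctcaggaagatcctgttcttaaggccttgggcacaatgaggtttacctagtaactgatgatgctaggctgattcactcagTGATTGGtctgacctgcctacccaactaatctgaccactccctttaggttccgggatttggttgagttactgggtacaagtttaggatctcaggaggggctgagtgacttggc
H2-Aa: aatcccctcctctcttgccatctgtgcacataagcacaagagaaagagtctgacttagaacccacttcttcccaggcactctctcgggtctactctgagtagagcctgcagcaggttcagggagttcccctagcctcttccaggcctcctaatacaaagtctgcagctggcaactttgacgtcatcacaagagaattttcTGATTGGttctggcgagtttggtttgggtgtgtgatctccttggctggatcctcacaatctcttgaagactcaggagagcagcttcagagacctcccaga
H2-Eb1: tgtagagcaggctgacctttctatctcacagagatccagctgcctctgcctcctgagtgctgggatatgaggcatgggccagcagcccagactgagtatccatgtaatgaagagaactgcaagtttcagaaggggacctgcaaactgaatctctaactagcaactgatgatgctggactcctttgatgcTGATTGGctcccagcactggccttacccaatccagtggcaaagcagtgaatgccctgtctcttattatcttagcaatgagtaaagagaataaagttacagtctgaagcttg

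Of 13 class II and antigen-processing genes listed for this purpose, 11 had a promoter in the RefSeq table (all but Tap2 and H2-Ab1). Searched on both strands, the Y box core was in the promoters of 9 of these 11 genes, where 8.99% of all 27025 genes in the table had it. The 9 were H2-Aa, H2-DMb1, H2-DMb2, H2-Eb1, H2-Eb2, H2-Oa, H2-Ob, Psmb9 and Tap1. The RUNX core was in 2 of the 11, H2-DMa and H2-DMb1, against 18.9% of all genes. A match of this kind is a string of letters and does not show that a factor binds.

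Total counts per library ran from 1738164 to 3758422, with 11670 to 25895 of them in the H2 complex. A level is given as CPM, the usual unit of read counts relative to library depth, scaled to a common library size by TMM, and 3 counts correspond to between 0.863 and 1.87 CPM. Intervals and floors of this kind cover counting error only. Set apart by 57 peaks, at least 8-fold higher in control 1, control 2 and Runx3 1 than in any of the remaining libraries or the reverse, the libraries divide into set 1 (those 3) and set 2 (the remaining 4). The labels do not give this division, and 0 of the 57 peaks lay in the H2 complex.

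Of the 417 peaks, 321 held enough reads to be tested, or 77.0%, against 58.2% of all peaks. The peaks of the complex were also more accessible than most. The median tested peak had 13.7 CPM, or 25.4 CPM per kilobase of peak, where the median over the whole table was 9.48 CPM, or 18.2 CPM per kilobase. The complex held 83 peaks of at least 30 CPM and 54 peaks at least 1000 bases wide. The last peak before its first member, at 33896663 to 33897802, had 126 ± 18.6 CPM in controls (SD, n = 4) and 131 ± 5.31 with Runx3 (SD, n = 3). The first member, at 33917525 to 33918639, had 22.9 ± 2.84 and 24.1 ± 1.71 CPM. The last member lies at 37406941 to 37408221, with 64.3 ± 0.530 and 62.1 ± 7.37 CPM, and the next peak beyond the complex starts only at 38162300, with 18 reads in all 7 libraries together. The end of the stretch set by position, from about 37.4 to 37.7 Mb, therefore held no peak.

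The complex was divided by position, with the bounds of the class II part given and the others approximate. The K part of class I (33.9 to 34.15 Mb) held 36 peaks, the class II and antigen-processing part (34.15 to 34.6 Mb) 78, and the class III part (34.6 to 35.39 Mb) 98. The D and Q part of class I (35.39 to 35.63 Mb) held 41, a framework part between class I clusters (35.63 to 36.1 Mb) 60, the T part (36.1 to 36.4 Mb) 42 and the M part (36.4 to 37.7 Mb) 62. Peaks were densest in the class II part (173 per Mb) and the D and Q part (171 per Mb), and sparsest in the M part (47.7 per Mb). The median tested peak was most accessible in the K part, at 31.0 CPM per kilobase, and least in the M part, at 18.7, close to the table's median. The class II part had 24.7, the class III part 28.0, the D and Q part 27.5, the framework part 22.6 and the T part 26.3 CPM per kilobase. The widest gap between 2 neighbouring members, 153.7 kb, was in the M part, whose end beyond the last member is not counted in this, and the class III part held a gap of 123.2 kb. The class I genes are related in sequence, some of them closely. How reads that match several places were counted is not given in the sources used here. Levels in the K, D and Q, T and M parts are therefore uncertain in that respect.

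Across the whole complex the accessibility of most peaks differed little between the vectors. In the edgeR quasi-likelihood test, 0 of the 321 tested peaks were called higher with Runx3 and 1 was called lower at an adjusted p under 0.05, where 0.033% of all 57504 tested peaks were called higher and 0.04% lower. DESeq2 and limma-voom called 0 members in either direction. Over all 57504 tested peaks DESeq2 called only 4 higher and 1 lower, and limma-voom 5 and 0. In edgeR at an unadjusted p under 0.05, 6 were higher (1.87% of the 321, against 3.91% of all tested peaks) and 13 lower (4.05%, against 4.4%). All 3 Runx3 libraries lay above all 4 controls in 6 peaks (1.87%, against 4.36% of all tested peaks) and below them in 19 (5.92%, against 4.58%). Their median log2 fold change was -0.02, against -0.01 for all tested peaks. Their lower and upper quartiles were -0.15 and 0.12, and 4 of them differed by more than 2-fold. The 83 peaks with at least 30 CPM had log2 fold changes between -0.41 and 0.25. The count of 6 higher peaks went to 15 without control 1, to 3 without control 2 and to 13 within set 2, and the 13 lower went to 6 without control 3 and to 8 without Runx3 4. Counts over all tested peaks moved too, from 2249 higher and 2528 lower. Higher peaks were 2842 of 57271 without control 1, 1861 of 54282 without control 2 and 2375 of 57504 within set 2. Lower peaks were 1819 of 53913 without control 3 and 2091 of 62367 without Runx3 4.

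**Figure D1:**
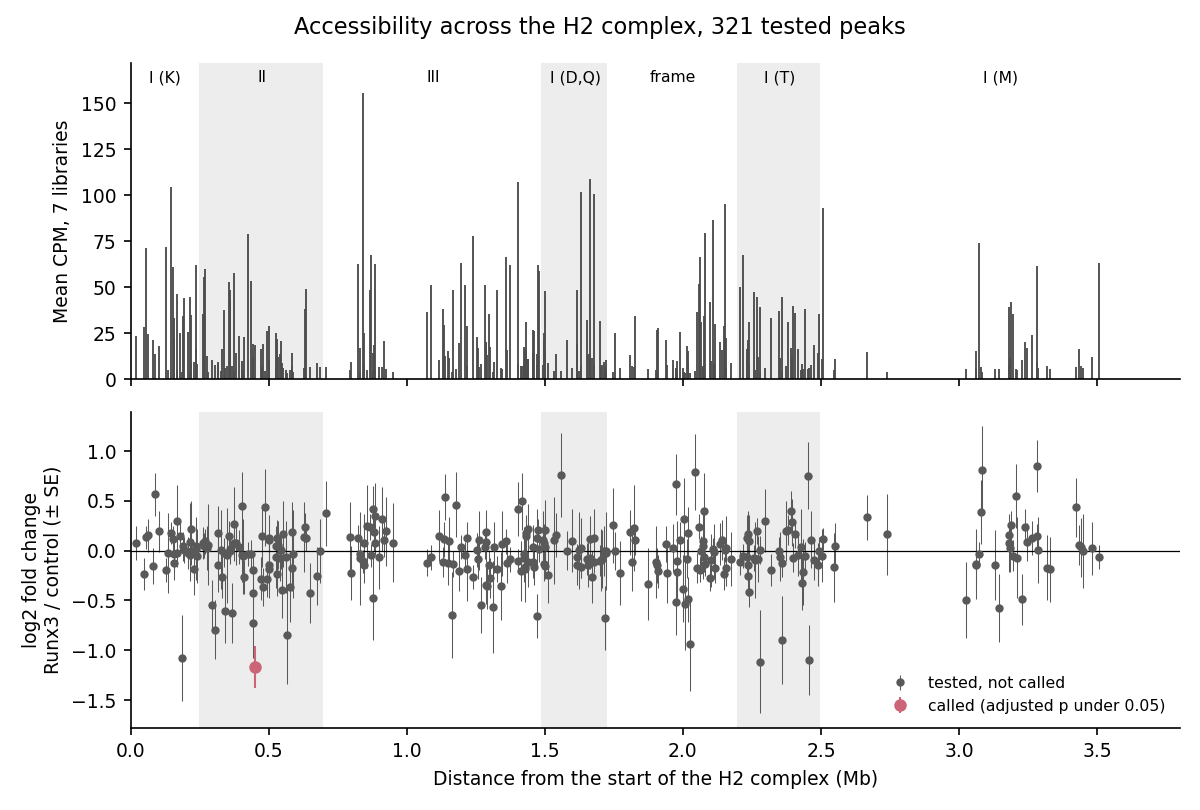
Mean CPM over 7 libraries (top) and log2 fold change of Runx3 over control with its SE (bottom) for the 321 tested peaks, by distance from the start of the complex in Mb, with the 7 parts as alternating bands. The single called peak lies in the class II band at -1.16, and most other points stay near 0.

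The class II and antigen-processing part held the called peak. It lies at 34347421 to 34348109 and is 688 bases wide. It had 23.8, 28.4, 24.2 and 20.7 CPM in controls 1 to 4 and 12.5, 7.59 and 12.7 CPM in Runx3 1, 3 and 4. Every Runx3 library lay below every control, with Runx3 3 lowest and control 2 highest. The reads behind these levels were 46, 73, 83 and 72 in controls and 20, 18 and 28 with Runx3. The means were 24.3 ± 3.18 CPM (SD, n = 4) and 10.9 ± 2.89 CPM (SD, n = 3), so the peak was 2.24-fold lower with Runx3. On the log2 scale this is -1.16 ± 0.21 (SE), with an adjusted p of 0.020 in edgeR. Its mean over all libraries, 27.0 CPM per kilobase, lay at the 72.0th percentile of tested peaks. The call rested on single libraries and on the tool. The edgeR adjusted p was 0.10 without control 2, 0.062 without control 3, 0.066, 0.14 and 0.067 without Runx3 1, 3 or 4, and DESeq2 gave an adjusted p of 0.12 and limma-voom one of 0.11. The call held without control 1 and without control 4. Lower calls over all tested peaks, 23 in the main fit, also fell in the fits that lost it. They were 0 without control 2, 1 without control 3, and 0, 4 and 2 without Runx3 1, 3 or 4. DESeq2 gave 1 and limma-voom 0. Without control 1 or control 4 they were 194 and 25.

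The peaks beside it were not called. On the left, the nearest tested peak, at 34342824 to 34343186 and 4.8 kb away, had 16.5, 11.3, 16.0 and 11.5 CPM in controls and 9.36, 10.1 and 10.9 with Runx3. Its Runx3 libraries also all lay below the controls, and edgeR gave a log2 fold change of -0.43 ± 0.24 (SE) with an adjusted p of 0.66. The peak at 34340979 to 34341605 had 20.3 ± 3.02 and 17.8 ± 2.32 CPM, and that at 34340452 to 34340807 had 6.27 ± 0.532 and 3.98 ± 1.98 CPM. In both, Runx3 and control libraries overlapped. On the right came the widest gap between peaks of the class II part, 23.8 kb, and then the peak at 34371928 to 34372310 with 17.4 ± 3.24 and 14.7 ± 4.14 CPM. The peak at 34375666 to 34375907 had 6.31 ± 1.06 and 7.0 ± 1.52 CPM. The peak at 34376376 to 34377249 had 19.6, 19.1, 23 and 23.6 CPM in controls and 12.5, 17.7 and 19.1 with Runx3, narrowly without overlap. Its log2 fold change was -0.37 ± 0.19 (SE). Of the 8 other tested peaks within 30 kb, 7 had a lower mean estimate with Runx3, with a median log2 fold change of -0.24. Within 100 kb this was 19 of 34 with a median of -0.03. Over all tested peaks 51.2% had a lower mean estimate with Runx3.

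**Figure D2:**
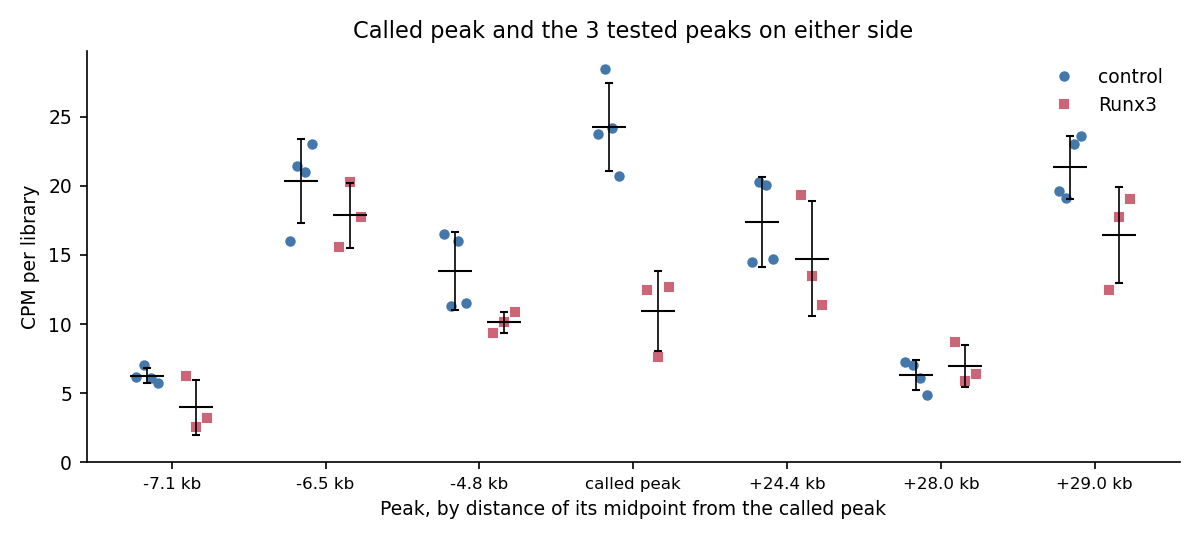
CPM of each library for the called peak and the 3 tested peaks on either side, by distance of their midpoints in kb (control circles, n = 4; Runx3 squares, n = 3; bars are mean ± SD). The groups are far apart at the called peak, at 24.3 and 10.9 CPM, and close or overlapping at the other 6.

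**Figure D3:**
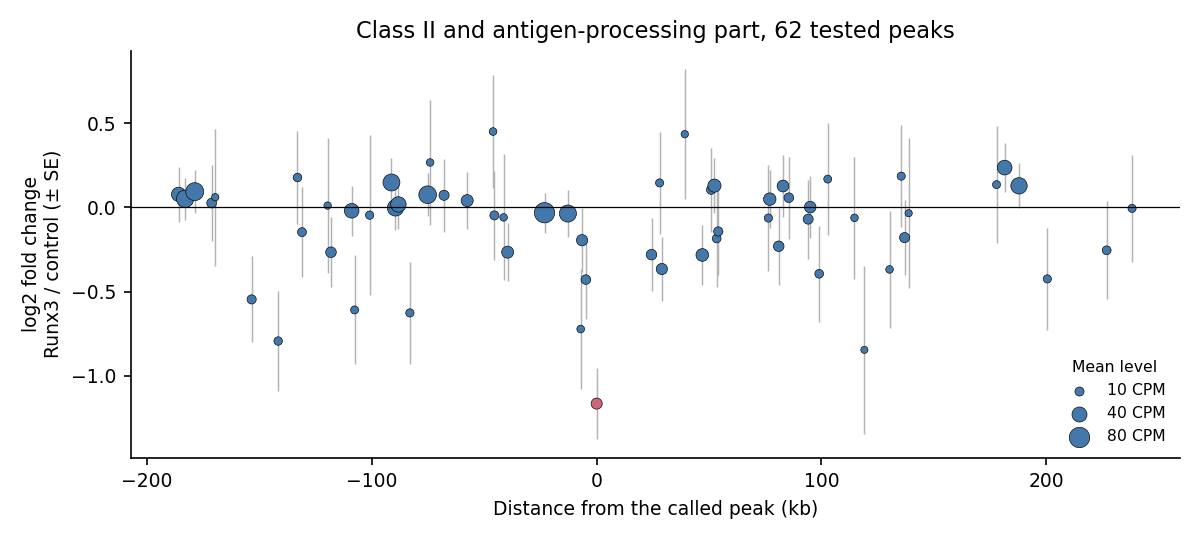
Log2 fold change with its SE for the 62 tested peaks of the class II and antigen-processing part, by distance from the called peak in kb, with point area growing with the mean CPM. Large points stay near 0, between -0.04 and 0.24, and the called peak is at -1.16.

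The most accessible sites of the class II part had near-equal mean levels under both vectors. The strongest, at 34323835 to 34325316, had 91.4, 77.9, 78.0 and 72.2 CPM in controls and 68.6, 80.1 and 83.1 with Runx3, with a log2 fold change of -0.03 ± 0.12 (SE). The peak at 34334272 to 34335728 had 54.1 ± 3.24 and 53.1 ± 14.6 CPM, the wide spread coming from Runx3 4 at 36.3 against 62.4 and 60.7 in the other two. At 34168404 to 34169598 the levels were 58.7 ± 9.56 and 61.9 ± 0.853 CPM, and at 34164214 to 34165204 they were 54.9 ± 5.68 and 56.7 ± 5.35. In each of these peaks the libraries of the 2 groups overlapped. The same held for 34272179 to 34273032 (57.1 ± 7.89 and 59.2 ± 5.87 CPM), 34256026 to 34256908 (51.1 ± 11.2 and 55.1 ± 10.5), 34257821 to 34258760 (48.6 ± 4.79 and 48.3 ± 2.65) and 34535077 to 34536265 (47.4 ± 6.83 and 50.9 ± 7.21). All 12 peaks of the part with at least 30 CPM had log2 fold changes between -0.04 and 0.24. In 0 of them did the groups not overlap, against 4.36% above and 4.58% below of all tested peaks. With 12 peaks a count of 0 is near those shares and shows little. Standard errors here were small, with a median of 0.14. Estimates within the library sets were less even, and set 1 has a lone Runx3 library. Within set 1 and set 2 the log2 fold changes were -0.34 and 0.38 at 34256026, and -0.24 and 0.26 at 34272179. They were -0.30 and 0.12 at 34323835, -0.17 and 0.27 at 34535077, and 0.16 and -0.11 at 34334272. Signs also differed at 34168404 and 34257821, and were the same at 34164214 (0.11 and 0.06).

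Weaker peaks of the class II part varied more. The peak at 34205668 to 34206396 had 5.68, 9.74, 12.2 and 10.4 CPM in controls and 4.99, 6.75 and 4.99 with Runx3, where control 1 lay among the Runx3 libraries. Its log2 fold change was -0.79 ± 0.30 (SE, edgeR adjusted p = 0.40). The peak at 34193947 to 34194615 had 12.1 ± 1.43 and 8.31 ± 2.51 CPM, and the groups did not overlap. The peak at 34264478 to 34264760 had 8.26 ± 1.81 and 5.38 ± 0.980 CPM. These 3 and the called peak are the 4 of 62 that were lower at an unadjusted p under 0.05 (6.45%, against 4.4% of all tested peaks), and 0 were higher (against 3.91%). In the fit without control 1, 4 of 62 were lower and 2 higher, against 3348 and 2842 of all 57271 tested peaks. Within set 2, 4 of 62 were lower and 5 higher, against 2730 and 2375 of 57504. The other fits with 1 library left out gave 0 or 1 higher. The 61 tested peaks other than the called one had log2 fold changes from -0.85 to 0.45 with a median of -0.03, and their smallest edgeR adjusted p was 0.40. All Runx3 libraries lay below all controls in 7 of the 62 (11.3%, against 4.58% of all tested peaks) and above them in 0 (against 4.36%). Without control 1 these counts were 10 below and 3 above, against 8.23% and 7.46% of all tested peaks. Of the 62, 35 had a lower and 27 a higher mean estimate with Runx3 (56.5% lower, against 51.2% of all tested peaks). Without control 1 these were 30 and 32.

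The class III part held the strongest site of the complex. At 34740328 to 34741467 it had 198, 154, 141 and 151 CPM in controls and 144, 151 and 150 with Runx3, which placed it at the 99.9th percentile of tested peaks. Only control 1 stood above the rest, and the log2 fold change was -0.11 ± 0.11 (SE). The next strongest, at 35301416 to 35302555, had 140, 105, 102 and 96.3 CPM in controls and 107, 96.5 and 103 with Runx3, again with control 1 highest. The part had 77 tested peaks with a median log2 fold change of -0.03. Of these, 39 had a lower mean estimate with Runx3 (50.6%, against 51.2% of all tested peaks). Its smallest p belonged to the peak at 35369633 to 35370047, near the end of the part. This had 16.0, 18.7, 15.4 and 16.1 CPM in controls and 8.73, 11.4 and 10.9 with Runx3, without overlap. Its log2 fold change was -0.65 ± 0.22 (SE, edgeR adjusted p = 0.31). The peak at 35036452 to 35037137 had 10.8 ± 2.16 and 15.5 ± 3.02 CPM, and its groups overlapped. In all, 1 peak of the part was higher (1.30%, against 3.91% of all tested peaks) and 2 were lower (2.60%, against 4.4%) at an unadjusted p under 0.05.

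The class I K part, which lies before the class II part, had its strongest peak at 34045520 to 34047249. Levels there were 105, 91.1, 102 and 99.5 CPM in controls and 102, 108 and 125 with Runx3. Runx3 3 and Runx3 4 exceeded all controls and Runx3 1 did not, and the log2 fold change was 0.17 ± 0.11 (SE). The peak at 34027250 to 34028064 had 76.1 ± 9.39 and 66.3 ± 5.13 CPM. Of 29 tested peaks 16 had a higher mean estimate with Runx3 (55.2%, against 48.8% of all tested peaks), and the median log2 fold change was 0.02. At an unadjusted p under 0.05, 1 of the 29 was higher (3.45%, against 3.91%) and 1 was lower (3.45%, against 4.4%). The smallest p was at 33988257 to 33989057, with 11.6 ± 1.61 and 17.1 ± 3.46 CPM (edgeR adjusted p = 0.41). The peak at 34084400 to 34084643 had 5.36 ± 1.69 and 2.38 ± 1.61 CPM and lay near the floor of 3 counts in Runx3 1.

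In the class I D and Q part, 3 sites were at about 100 CPM in every library. The peak at 35561211 to 35562078 had 122, 105, 108 and 112 CPM in controls and 102, 115 and 100 with Runx3. The peak at 35530446 to 35531555 had 106, 109, 107 and 103 CPM in controls and 94.8, 102 and 89.0 with Runx3. In the second of these all Runx3 libraries lay below the controls, by a small margin and with a log2 fold change of -0.16 ± 0.11 (SE) and an adjusted p of 0.76 in edgeR. The part had 31 tested peaks with a median log2 fold change of -0.02. Of these, 19 had a lower mean estimate with Runx3 (61.3%, against 51.2% of all tested peaks). At an unadjusted p under 0.05, 1 of the 31 was lower (3.23%, against 4.4%) and 0 were higher (against 3.91%). The smallest p was at 35616531 to 35617051, with 7.78 ± 1.45 and 4.83 ± 1.58 CPM (edgeR adjusted p = 0.57). At 35457689 to 35458345, a weak peak, levels were 3.8 ± 2.73 and 5.85 ± 1.76 CPM, and control 1 at 7.75 set much of the control spread.

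The framework part lies between the class I clusters. Its strongest peaks, at 36053032 to 36054072 and 36006963 to 36008035, had 95.8 ± 13.1 and 86.4 ± 7.0 CPM in controls and 95.3 ± 4.69 and 87.4 ± 6.55 with Runx3. Both log2 fold changes were within 0.02 of 0, with an SE of 0.12 and 0.11. The median over its 48 tested peaks was -0.07. The peak at 35873233 to 35873567 had 4.65, 4.28, 4.37 and 6.04 CPM in controls and 8.73, 7.59 and 7.26 with Runx3. Its Runx3 libraries all lay above the controls, and the log2 fold change was 0.67 ± 0.31 (SE, edgeR adjusted p = 0.55). The peak at 35917316 to 35917743 had 17.5 ± 3.11 and 13.0 ± 4.32 CPM. Of the 48 tested peaks 28 had a lower mean estimate with Runx3 (58.3%, against 51.2% of all tested peaks). At an unadjusted p under 0.05, 1 of the 48 was lower (2.08%, against 4.4%) and 2 were higher (4.17%, against 3.91%).

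In the class I T part the strongest peaks, at 36115880 to 36117654 and 36106198 to 36107210, had 68.9 ± 4.66 and 51.9 ± 5.51 CPM in controls and 65.8 ± 5.11 and 47.5 ± 4.04 with Runx3. The peak at 36355628 to 36356071 had 5.68, 10.5, 10.8 and 6.04 CPM in controls and 3.74, 5.48 and 2.27 with Runx3. The groups did not overlap, although control 1 and Runx3 3 were almost level. Its log2 fold change was -1.10 ± 0.35 (SE, edgeR adjusted p = 0.29), the largest size in the complex among peaks whose groups did not overlap other than the called one. The peak at 36138622 to 36139240, a stronger site, had 30.5, 37.8, 32.0 and 38.0 CPM in controls and 26.8, 27.0 and 24.5 with Runx3. Here too the groups were apart, with a log2 fold change of -0.41 ± 0.16 (SE) and an adjusted p of 0.40 in edgeR. Of the 38 tested peaks 24 had a lower mean estimate with Runx3 (63.2%, against 51.2% of all tested peaks), with a median log2 fold change of -0.06. At an unadjusted p under 0.05, 4 were lower (10.5%, against 4.4% of all tested peaks) and 1 was higher (2.63%, against 3.91%).

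The class I M part was the only part besides the K part whose median log2 fold change was above 0, at 0.03 over 36 tested peaks. Its strongest peaks, at 36407781 to 36409086 and 36972950 to 36974593, had 90.1 ± 3.67 and 74.7 ± 4.35 CPM in controls and 97.5 ± 7.26 and 73.0 ± 6.65 with Runx3. The peak at 37181685 to 37182139 had the smallest p of all members that were higher with Runx3. It had 7.75, 6.62, 6.11 and 6.61 CPM in controls and 15.6, 9.28 and 12.3 with Runx3. All Runx3 libraries lay above all controls, and edgeR gave a log2 fold change of 0.85 ± 0.26 (SE), or 1.80-fold higher, with an adjusted p of 0.26. The peak at 37129208 to 37130008 had 11.9 ± 2.5 and 8.49 ± 1.89 CPM, with overlap. Of the 36 tested peaks 15 had a lower mean estimate with Runx3 (41.7%, against 51.2% of all tested peaks). At an unadjusted p under 0.05, 1 of the 36 was higher (2.78%, against 3.91%) and 0 were lower (against 4.4%).

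The 96 peaks that were too weak to be tested held between 14 and 76 reads each over all libraries. In the class II part 2 of them shared the highest total, 67 reads. The one at 34230414 to 34230655 had 14, 8, 12 and 9 reads in controls and 3, 12 and 9 with Runx3, and its groups overlapped. The one at 34287152 to 34287416 had 3, 6, 14 and 10 reads in controls and 12, 13 and 9 with Runx3. Scaled to depth, its Runx3 libraries all lay above the controls, the lowest of them only narrowly, at 5.68 ± 1.71 CPM (SD, n = 3) against 2.71 ± 1.06 CPM (SD, n = 4). The one with most in the complex, at 36306731 to 36307033 in the T part, had 8, 15, 23 and 13 reads in controls and 6, 8 and 3 with Runx3. The others named by the same rule had 60 reads (33963870 to 33964090, K part), 71 (34837616 to 34837964, class III), 62 (35596733 to 35596993, D and Q), 68 (35842878 to 35843108, framework) and 69 (37051103 to 37051379 and, level with it, 37387549 to 37387828, M). All Runx3 libraries lay above all controls in 7 of the 96 (against 4.55% of all peaks too weak to be tested) and below them in 2 (against 3.57%). In the class II part these were 3 and 1 of 16. Peaks with so few reads show little about the groups.

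The share of all counts that fell into the complex was 0.733%, 0.667%, 0.677% and 0.689% in controls 1 to 4 and 0.671%, 0.696% and 0.684% in Runx3 1, 3 and 4. The groups overlapped, with means of 0.692% ± 0.0291 (SD, n = 4) and 0.684% ± 0.0124 (SD, n = 3). The class II part took 0.122%, 0.110%, 0.109% and 0.109% in controls and 0.107%, 0.110% and 0.112% with Runx3. Control 1 was above every other library in the class II part. The groups overlapped in each of the 7 parts, and the ratio of the Runx3 mean to the control mean ran from 0.950 in the D and Q part to 1.06 in the M part.

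**Figure D4:**
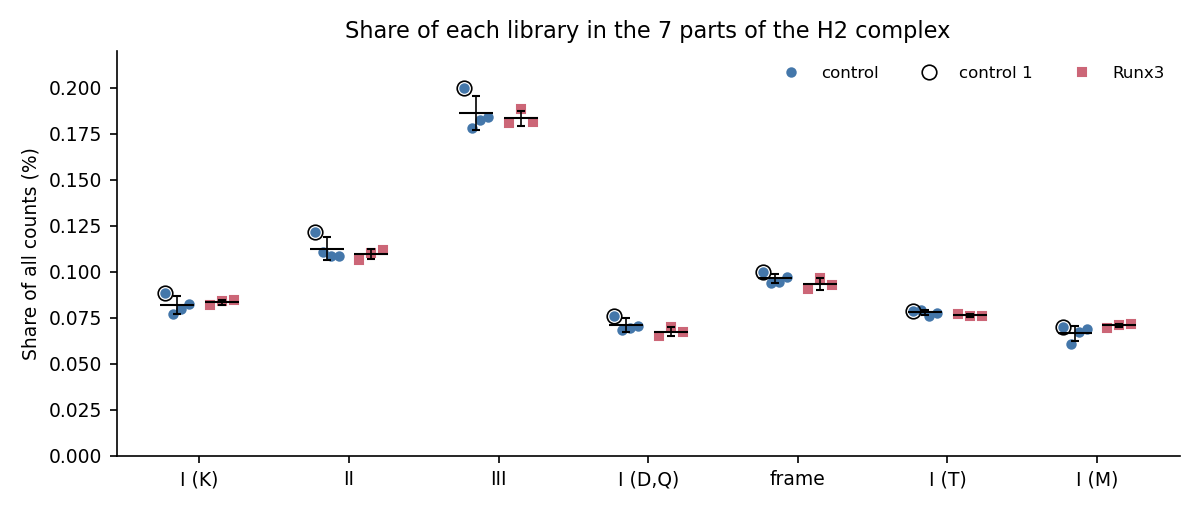
Share of each library's counts in the 7 parts of the complex, in percent (control circles, n = 4, control 1 ringed; Runx3 squares, n = 3; bars are mean ± SD). The groups overlap in every part, and control 1 is the highest control in all parts but the T part.

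Control 1 was high across the complex. It was the highest of the 4 controls in 160 of the 321 tested peaks, or 49.8%, against 32.2% of all tested peaks and 33.9% of those on the rest of chromosome 17. By part, the highest shares were 67.7% in the D and Q part and 53.2% in the class II part. The lowest were 39.6% in the framework part and 42.1% in the T part. It was high at each level of accessibility: 61.4% of members with at least 30 CPM against 51.3% of all such peaks, 48.1% against 28.1% between 10 and 30 CPM, and 43.8% against 28.6% under 10 CPM. The median deviation of control 1 from the mean of the controls was 0.12 on the log2 scale over the complex and 0.18 over the class II part, and it was at 0.00 over all tested peaks. These counts do not use the vector contrast, but peaks of 1 library are not independent replicates and no test was made. The cause was not tested. Without control 1 the called peak had a log2 fold change of -1.17 (edgeR adjusted p = 0.0013).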

How the data were processed

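Counts per peak were deposited by the authors as raw whole numbers for 7 libraries. The mm9 build and the tools MACS2, Picard, SAMtools, Bowtie2, FastQC and Trim Galore are listed per the submitters' processing notes. Not given in the sources used here are their versions and roles, how the shared peak set was made, how reads with several matches were handled, and any shift for the transposase. The table does not say whether starts count from 0 or 1. The whole table was fitted with edgeR 4.0.16 in R 4.3.3 (filterByExpr with minimum count 10 and minimum total 15, TMM, robust quasi-likelihood test of all 7 libraries by vector, no block), with Benjamini-Hochberg adjustment over 57504 peaks. An SE is the log2 fold change divided by the square root of F and is approximate. On counts simulated for this comparison over 57504 peaks, the fit recovered 8 of 50 peaks changed 1.5-fold, 23 of those changed 2-fold, 45 of those changed 3-fold and 50 of those changed 4-fold, with 8 false calls among 134. The simulated spread followed the trend over all peaks, and only peaks with a mean of at least 10 counts were changed. The real fit had fewer calls, 19 higher and 23 lower, which makes its adjusted threshold harder to pass. Recovery in the real data may therefore be lower. Members, part bounds and lists were chosen with earlier results of these data known. Named peaks are those called, the strongest and smallest-p peaks of each part (8 and 6 in class II, 2 and 2 elsewhere), the peaks at either end and the strongest untested peak of each part. Others were chosen after their values were seen, as were the 3 promoters and the bands of level. Alternatives covered scaling, DESeq2 1.42.0, limma-voom (limma 3.58.1), filters, a replicate block, the library sets, depth, part bounds and leaving out each library. Libraries of a group were compared for copies, and every pair differed by more than counting noise (chi-square from 1.21 to 2.61 per degree of freedom).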

Additional observations from a re-analysis of the deposited data

Results flagged for a closer look

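In the class II and antigen-processing part, control 1 took 0.122% of its counts, while the other 3 controls lay between 0.109% and 0.110%, so that its gap to the nearest took most of the range of the 4. In the peak at 33917525 to 33918639, the first of the complex, control 2 had 18.7 CPM, apart from the other 3 controls at 23.8 to 24.7 CPM. These are 2 of 48 such groups looked at, and chance alone gives about 2.4. Among the 96 untested peaks of the complex, the largest ratio of a Runx3 library to the highest control was 2.44, and the largest ratio of a control to the highest Runx3 library was 2.56, with 0.5 CPM added to each level.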

How the results depend on the processing

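Calls within set 1 are left out of this list, as that set holds a lone Runx3 library. No member was called higher in any other setting. The 1 lower call fell to 0 with DESeq2, with limma-voom and without control 2, control 3, Runx3 1, Runx3 3 or Runx3 4 (leaving out 1 library gave 0 to 1). The number of lower calls over all tested peaks, 23 in the main fit, was also smaller in each of these settings. The log2 fold change of the called peak, -1.16, was -1.16 with DESeq2, -1.18 with limma-voom, -1.07 within set 1 (its lone Runx3 library is taken to vary as the controls do), -1.15 within set 2, -1.32 with depth as a covariate and from -1.31 to -0.94 with 1 library left out. As its groups do not overlap, leaving out libraries could not turn its direction. At an unadjusted p under 0.05, the 6 higher and 13 lower became 2 and 6 with DESeq2 and 3 and 7 at a mean count of at least 20. There were 11 higher without a low-count filter, 13 higher within set 2 and 6 lower with thinned counts. Leaving out 1 library gave 3 to 15 higher and 6 to 16 lower, against 1681 to 2842 and 1819 to 3348 over all tested peaks. It gave 7 to 24 peaks with all Runx3 libraries above and 21 to 39 below, numbers that rise by construction with fewer libraries. Over all tested peaks these were 6.15% to 9.25% above and 6.15% to 9.24% below. The median of the class II part, -0.03, stayed within the spread between libraries in all settings, from -0.12 with that covariate to 0.04 without Runx3 3, and its sign is not fixed. Their cause was not tested. Under alternatives 735 further values were compared, 8 of them ratios of count shares and the rest of single named peaks. Of the 735, 33 moved by more than the spread between libraries, 16 of them within set 1 and 11 under the covariate. Libraries with the same number do not come from a stated shared source, their deviations correlated at 0.12, 0.10 and 0.07, and control 4 correlated best with Runx3 3. With the replicate number as a block, 0 members were higher and 1 lower, with -1.09 for the called peak.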
